A study of Mus musculus with 11 samples.

Results

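Transcript-rich cells are the segmented cells that held the most RNA molecules in their own tissue section. A segmented object was kept as a cell when it measured 100 µm3 or more and held 10 or more detected transcripts. It counted as transcript-rich when its transcript count reached the 95th percentile of the kept cells of the same section. Over 11 sections this gave 11704 transcript-rich cells of 232117 kept cells and of 831598 segmented objects. Per section there were 447 (CONTROL ICI 3) to 2324 (CONTROL 3) of them, or 5.01% to 5.10% of the cells. The transcript count chose these cells, so counts, thresholds and shares of transcripts are given as descriptions without a test.

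The sections are 10 µm thick and come from the hippocampus of male wild-type C57Bl/6 mice aged 10 to 12 weeks, imaged by MERFISH, which reads single RNA molecules in tissue through barcoded probes. The CONTROL group (n = 3 sections) had no tumour and received isotype-matched antibodies into the abdomen, and the CONTROL ICI group (n = 3) had no tumour and received immune checkpoint inhibitors (ICI) by the same route. The inhibitors were anti-CTLA-4, at 1 mg per dose and 3 doses in each week, and anti-PD-1, at 200 µg per dose and 2 doses in each week, over 3 weeks. The MELANOMA (n = 2) and MELANOMA ICI (n = 3) groups carried tumours from 500000 syngeneic D4M-3A.UV2 melanoma cells injected into the skin on both sides of the body, grown for 1 week before the isotype antibodies or the same inhibitors began. The labels do not say which sections came from separate animals, so p-values measure only the spread between these sections. The tables used here hold 1 transcript total per object and no gene, so no cell type can be checked against markers and none is named. A segmented object may also hold part of a cell or several cells.

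The hippocampus is known for curved layers in which the bodies of its principal neurons lie densely side by side, between zones made mostly of their branches. Large neurons generally hold more RNA than the small cells around them. PolyT is a stain for the polyadenylated tails of messenger RNA and marks the cell body, and DAPI is a stain for DNA and marks the nucleus. Neither stain was used to choose the transcript-rich cells.

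The labels and file headers name no imaging run. Leading digits shared by the object identifiers put the sections in 3 sets, called runs here on that basis alone, and no identifier occurred in more than 1 section. Run 1 comprised CONTROL 1, MELANOMA ICI 2, MELANOMA 1 and both CONTROL ICI 1 and CONTROL ICI 2. MELANOMA ICI 3, MELANOMA 2 and CONTROL 2 formed run 2, and MELANOMA ICI 1, CONTROL ICI 3 and CONTROL 3 formed run 3. The sections of run 3 stand apart in cell shape and volume, so results are given by run and, where they rest on run 3, without it. Each run held 3 or 4 of the groups, but the MELANOMA group had no section in run 3 and the CONTROL ICI group none in run 2.

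In the map of their positions, judged by eye alone, the transcript-rich cells traced curved bands most plainly in CONTROL ICI 3 and MELANOMA ICI 1. The bands are thin and long there, and looser, with gaps, in the sections of run 1. No measure of bands was computed. Other transcript-rich cells were scattered over wide areas outside the bands.

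**Figure D1:**
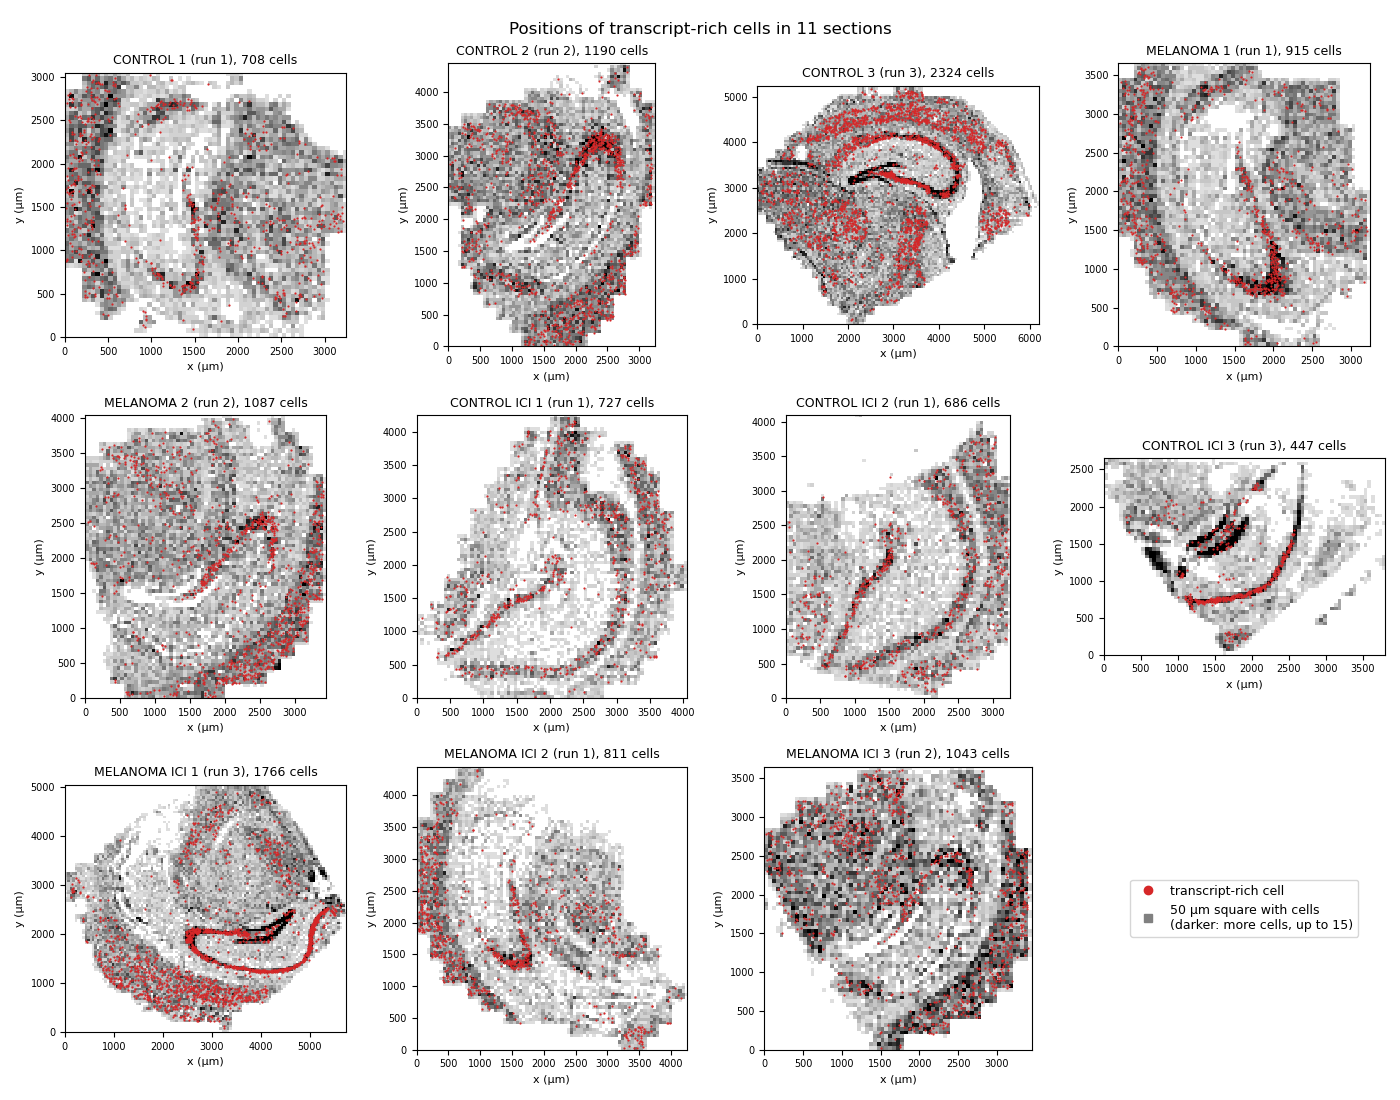
Each panel is 1 section with positions in µm on both axes. Red points are transcript-rich cells, and grey squares of 50 µm are darker where they hold more cells, up to 15. By eye, the red points line up in curved bands most plainly in CONTROL ICI 3 and MELANOMA ICI 1, and are scattered over other areas.

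The count that a cell needed to be called transcript-rich differed between sections. In the CONTROL group the threshold was 110, 214 and 183 transcripts in sections 1, 2 and 3. It was 70, 89 and 101 in the CONTROL ICI sections. The MELANOMA sections had thresholds of 143 and 188, and the MELANOMA ICI sections 137, 102 and 167. The 3 lowest thresholds of the study were those of the CONTROL ICI sections, and the MELANOMA ICI values overlapped those of the MELANOMA group. The group means were 169 ± 53.4 (SD, n = 3) for CONTROL, 86.7 ± 15.6 (n = 3) for CONTROL ICI, 165.5 ± 31.8 (n = 2) for MELANOMA and 135 ± 32.5 (n = 3) for MELANOMA ICI. Averaged over both tumour states on the log2 scale, the threshold with the inhibitors was 0.653 times that without, and 0.708 times when sections were compared within their run. It was lower in 4 of 4 pairings of tumour state and run. The comparison within runs left out CONTROL 2 and MELANOMA ICI 1, whose runs held no section of the same tumour state under the other treatment.

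On the log2 scale, differences between runs made up 61.2% of the variance of the threshold and differences between groups 62.3%. The CONTROL ICI group had no section in run 2, so the parts of run and group cannot be fully told apart. Relative to the median cell of its own section, the threshold followed the imaging run. It was 4.12 to 5.30 times the median count in run 1, 6.48 to 7.13 times in run 2 and 3.66 to 3.91 times in run 3. The ranges of the 3 runs do not overlap. By this relative measure, the threshold with the inhibitors was 0.836 times that without, and 0.961 times within runs. It was lower in 2 of the 4 pairings of tumour state and run and higher in 2.

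The transcript-rich cells held 17.9% to 28.1% of the transcripts of the kept cells. Their share in run 1 was 23.5% in CONTROL 1, 23.5% in MELANOMA 1, 23.4% in MELANOMA ICI 2, 21.6% in CONTROL ICI 1 and 22.1% in CONTROL ICI 2. In run 2 it was 27.2% in CONTROL 2, 27.0% in MELANOMA 2 and 28.1% in MELANOMA ICI 3. In run 3 it was 17.9% in CONTROL 3, 19.0% in CONTROL ICI 3 and 18.5% in MELANOMA ICI 1. The runs did not overlap, and differences between runs made up 96.5% of the variance among sections against 17.8% for differences between groups. The Wilson 95% interval of each share reached at most 0.134 percentage points to either side, which covers counting error only. Group means were 22.9% ± 4.64 for CONTROL, 20.9% ± 1.70 for CONTROL ICI, 25.2% ± 2.46 for MELANOMA and 23.3% ± 4.78 for MELANOMA ICI. Within runs, the share with the inhibitors was 1.006 times that without. Of the transcripts of all segmented objects, the share was 14.3% (CONTROL ICI 1) to 24.99% (CONTROL 2). The top 1% of cells alone held 5.08% (CONTROL 3) to 10.3% (MELANOMA 2) of the cells' transcripts.

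**Figure D2:**
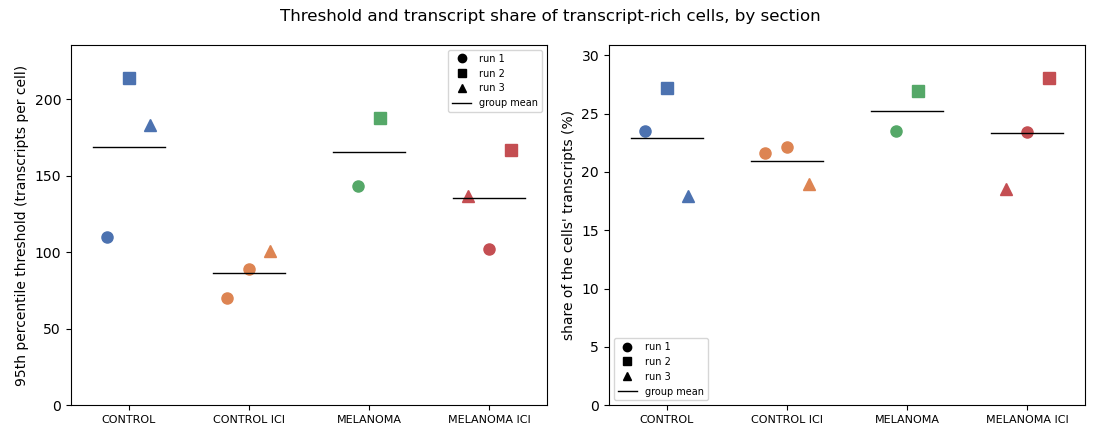
The left panel plots the threshold in transcripts per cell, and the right panel the share (%) of the kept cells' transcripts held by transcript-rich cells. Each point is a section, its shape marks the imaging run and the line is the group mean. The CONTROL ICI thresholds lie between 70 and 101, below the other 8 sections, and the shares fall into 3 levels by run.

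The filter used volume, so volumes are also described without a test. The median volume of transcript-rich cells was 2006, 2387 and 2546 µm3 in CONTROL sections 1, 2 and 3. It was 2173, 2178 and 1881 µm3 in the CONTROL ICI sections, 2192 and 2366 µm3 in the MELANOMA sections and 2334, 2201 and 2094 µm3 in the MELANOMA ICI sections. The runs overlap in this measure, and differences between runs made up 9.84% of its variance. The other cells did differ by run, with median volumes of 707 to 851 µm3 over the first run, 511 to 865 µm3 over the second and 1459 to 1616 µm3 over the third.

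The ratio of the 2 medians therefore set run 3 apart. Transcript-rich cells were 2.58 to 2.90 times as large as the others in run 1, 2.73 to 4.10 times in run 2 and 1.29 to 1.63 times in run 3. They were larger in 11 of 11 sections, by 2.45 times in the geometric mean. They took up 11.7% to 13.3% of the cells' volume in run 1, 12.8% to 15.8% in run 2 and 6.48% to 8.08% in run 3. Of the cells in the top volume decile of their section, 23.5% to 37.6% were transcript-rich in runs 1 and 2, and 10.3% to 21.6% in run 3. Of the fifth decile, at most 0.485% were in runs 1 and 2, against 1.19% to 6.43% in run 3. Transcript-rich cells thus ranged further down the size scale in run 3.

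Their outline and their depth can be read apart. The bounding box of a transcript-rich cell, the rectangle around it in the plane, had a median area of 500 to 674 µm2 in runs 1 and 2, against 279 to 361 µm2 in run 3. It was 1.35 to 1.74 times that of the other cells over the 11 sections. Volume divided by the box area, a rough measure of how many µm deep a cell was traced, was 3.41 to 4.31 µm in transcript-rich cells and 1.25 to 2.12 µm in the others in runs 1 and 2. In run 3 it was 6.99 to 7.21 µm in transcript-rich cells and 7.33 to 7.39 µm in the others. Transcript-rich cells were thus deeper than the others in 8 of 8 sections of runs 1 and 2 and slightly shallower in 3 of 3 of run 3. In runs 1 and 2 the part that tracing depth plays in the transcript counts was not tested.

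The bounding box of a cell can hold the centre of another object whether or not their outlines overlap, and outlines were not compared. The box of a transcript-rich cell held the centre of another object in 64% to 83% of cases in runs 1 and 2, against 86% to 93% for the other cells. In run 3 the shares were 19% to 28% against 9.6% to 13%. The boxes of transcript-rich cells thus held another centre less often than those of the others in the 8 sections of runs 1 and 2. They did so more often in the 3 of run 3.

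**Figure D3:**
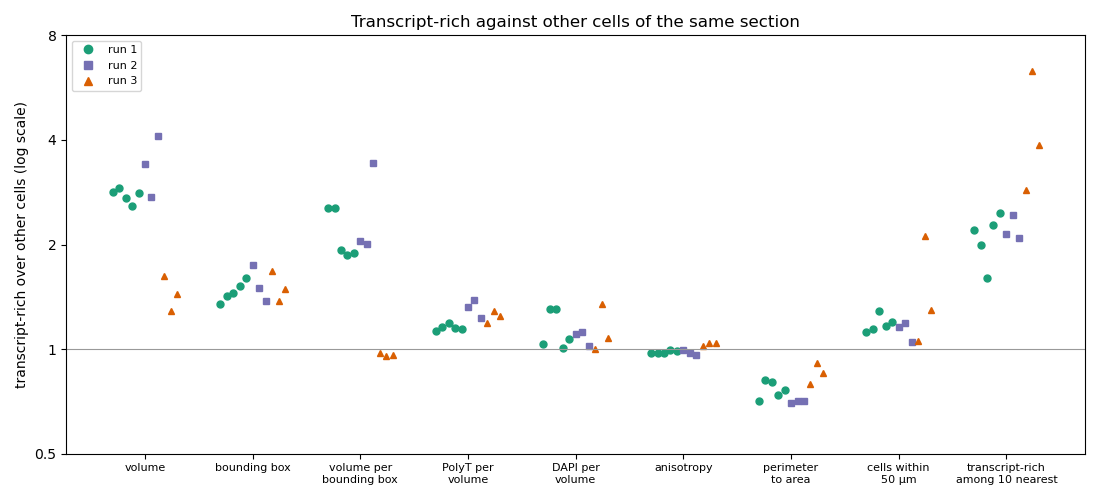
Each point is the value in transcript-rich cells over that in the other cells of the same section, on a log axis, for 9 measures, with colour and shape for the imaging run. Volume, volume per bounding box and anisotropy separate run 3 from the others, while PolyT per volume and the share of transcript-rich cells among the 10 nearest lie above 1 in each section.

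PolyT staining per volume, which is read in the same traced objects as the transcript count, was higher in transcript-rich cells in 11 of 11 sections. In run 1 the ratio to the other cells was 1.13 (CONTROL 1), 1.15 (MELANOMA 1), 1.14 (MELANOMA ICI 2), 1.16 (CONTROL ICI 1) and 1.19 (CONTROL ICI 2). In run 2 it was 1.32 (CONTROL 2), 1.38 (MELANOMA 2) and 1.23 (MELANOMA ICI 3). In run 3 it was 1.19 (CONTROL 3), 1.29 (CONTROL ICI 3) and 1.24 (MELANOMA ICI 1). The mean difference was 0.28 on the log2 scale, or 1.22-fold, with p = 0.000977 when signs were flipped exactly over the 11 sections (two-sided), the smallest p that this exact test allows, and 0.00171 after Benjamini-Hochberg adjustment over 7 measures. Compared with cells of the same volume decile, the ratio was 1.18 to 1.43. Transcript-rich cells were thus brighter in PolyT at matched volume too.

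Most of them were not among the brightest cells by this stain. Choices unrelated to each other would share about 5%, and the overlap was above that in each section but CONTROL ICI 3. Of the transcript-rich cells, 15.1% to 28.3% in runs 1 and 2, against 3.13% to 8.78% in run 3, were also in the top 5% by PolyT per volume. The overlap with the top 5% by volume was 24.6% to 46.6% in runs 1 and 2, against 11.6% to 26.6% in run 3. The overlap with the top 5% by transcripts per volume ran the other way, 7.98% to 24.7% in runs 1 and 2, against 32.8% to 42.5% in run 3. In runs 1 and 2 the transcript-rich cells were thus more often among the largest than among the most concentrated, and in run 3 more often among the most concentrated.

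DAPI per volume differed less. The ratio of transcript-rich to other cells was 1.03, 1.103 and 0.998 in CONTROL sections 1, 2 and 3, and 1.01 and 1.12 in the MELANOMA sections. It was 1.079, 1.07 and 1.02 in the MELANOMA ICI sections and 1.305, 1.304 and 1.345 in the CONTROL ICI sections. It was above 1 in 10 of 11 sections, with a mean of 0.16 on the log2 scale, p = 0.00195 in the exact sign-flip test and 0.00273 adjusted. This excess depended on the filter and the stain column: with at least 200 µm3 and 50 transcripts the mean was −0.016, and with the high-pass filtered stain values, added after the data were seen, it was −0.017. Within volume deciles it was above 1 in 8 of 11 sections. Of the transcript-rich cells, 10.3% in CONTROL ICI 1 were also in the top 5% by DAPI per volume. In the other sections the overlap was 0.731% (CONTROL 3) to 4.96% (CONTROL ICI 2), where unrelated choices would share about 5%. The CONTROL ICI sections stood above the other 8, as described with the groups below.

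Elongation differed little between transcript-rich and other cells. Anisotropy, the elongation of a cell (long axis over short), was lower in transcript-rich cells than in the others in 8 of 8 sections of runs 1 and 2, with ratios of 0.961 to 0.993. It was higher in 3 of 3 sections of run 3, with ratios of 1.021 to 1.042. Over 11 sections the mean was −0.0093 on the log2 scale and did not pass the exact sign-flip test (p = 0.457). The direction in runs 1 and 2 turned with the filter: with at least 200 µm3 and 50 transcripts the ratio was above 1 in 5 of these 8 sections, and in 3 of 3 sections of run 2. In run 3 it stayed above 1 in 3 of 3 sections, at 1.028 to 1.043. The other cells had a median anisotropy of 1.32 to 1.33 in run 3 and 1.53 to 1.57 in the other sections.

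The perimeter-to-area score was lower in transcript-rich cells in 11 of 11 sections. Its ratio was 0.701 to 0.817 in runs 1 and 2, against 0.793 to 0.911 in run 3, with a mean of −0.38 on the log2 scale (exact sign-flip p = 0.000977, adjusted 0.00171). Such a score falls with size for any outline. Against cells of the same volume decile it was below 1 in 8 of 8 sections of runs 1 and 2 and above 1 in 3 of 3 of run 3, at 1.011 to 1.043. The solidity score was 1.87 to 3.31 times as high in transcript-rich cells in runs 1 and 2, against 0.973 to 0.983 times in run 3 (exact sign-flip p = 0.00781, adjusted 0.00912). Its scale is not defined in the sources used here, and its ratios lie close to those of volume per box.

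Transcript-rich cells had slightly more kept cells around them. A kept cell needed 10 transcripts, so this count depends on transcripts as the choice of transcript-rich cells does. The part of the filter in this excess was not tested. The median number of kept cells within 50 µm of a transcript-rich cell was 16 (CONTROL ICI 1) to 22 in 10 sections and 36 in CONTROL ICI 3, against 14 to 21 around the other cells. The ratio was 1.05 (MELANOMA ICI 3 and CONTROL 3) to 1.29 in 10 sections and 2.12 in CONTROL ICI 3. It was above 1 in 11 of 11 sections, with a mean of 0.30 on the log2 scale (exact sign-flip p = 0.000977, adjusted 0.00171). With a radius of 25 µm the mean was 0.091 and the test was not passed (exact p = 0.719). Counting all segmented objects within 50 µm, the surroundings of transcript-rich cells held fewer than those of the other cells in 8 sections, more in 2 and as many in 1.

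Transcript-rich cells had more of their own kind around them than the other cells had. Among the 10 nearest cells of a transcript-rich cell, the mean share that was itself transcript-rich was 10.3% in CONTROL 1, 10.5% in MELANOMA 1, 11.2% in MELANOMA ICI 2, 9.49% in CONTROL ICI 1 and 7.78% in CONTROL ICI 2. In run 2 it was 9.51% in CONTROL 2, 10.8% in MELANOMA 2 and 9.22% in MELANOMA ICI 3. In run 3 it was 13.2% in CONTROL 3, 26.3% in CONTROL ICI 3 and 17.5% in MELANOMA ICI 1. Around the other cells it was 4.16% to 4.86%, so each section had the higher share around its transcript-rich cells. The ratio was 1.60 to 2.47 in runs 1 and 2, against 2.87 to 6.33 in run 3. The mean over sections was 1.35 on the log2 scale, or 2.55-fold (exact sign-flip p = 0.000977, adjusted 0.00171), and without run 3 it was 1.09, or 2.13-fold. Against other cells of the same volume decile the ratio was 2.34 to 8.95.

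Many transcript-rich cells nonetheless stood alone. None of the 10 nearest cells was transcript-rich for 38.8% to 48.8% of them in runs 1 and 2 and for 21.3% to 33.3% in run 3. At least 5 of the 10 nearest were transcript-rich for at most 1.85% in runs 1 and 2, for 2.28% in CONTROL 3, for 8.72% in MELANOMA ICI 1 and for 21.9% in CONTROL ICI 3. Scattered cells were thus common in each section, and tight groups were frequent in CONTROL ICI 3 and MELANOMA ICI 1.

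The excess of transcript-rich neighbours was lower at long distances than at short ones. In a ring of 0 to 25 µm around transcript-rich cells, their share was 1.51 to 2.23 times the section's share in runs 1 and 2, against 2.80 to 5.59 times in run 3. Between 25 and 50 µm it was 1.67 to 2.45 times in runs 1 and 2, against 2.58 to 4.73 times in run 3, and 6 of the 8 sections of runs 1 and 2 had a higher value there than in the closest ring. Between 100 and 200 µm it was 1.20 to 1.71 times in runs 1 and 2, against 1.58 to 2.38 times in run 3. Between 400 and 800 µm it was 0.955 to 1.13 times in runs 1 and 2, against 1.09 to 1.36 times in run 3. Run 3 had the highest mean in each of these 4 rings, with ranges that overlap those of the other runs beyond 100 µm.

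**Figure D4:**
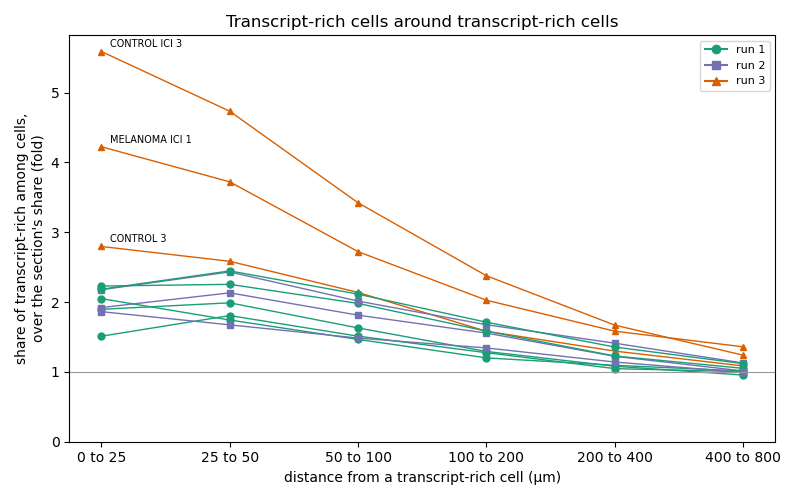
The share of transcript-rich cells among all cells at a given distance from a transcript-rich cell is plotted over the section's own share (fold), by ring of distance in µm. Each line is a section, with colour and shape for the run. The lines lie at 1.51 to 5.59 at 0 to 25 µm, rise at 25 to 50 µm in 6 of the 8 sections of runs 1 and 2, and lie between 0.955 and 1.36 at 400 to 800 µm, and those of run 3 start highest.

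Places rich in these cells were counted as squares of 100 µm that held at least 5 cells of which at least 20% were transcript-rich. A single transcript-rich cell can suffice for this, and many squares of runs 1 and 2 touched no other: the 24 squares of MELANOMA ICI 3 formed 19 separate patches. Such squares made up 2.66% (MELANOMA ICI 3) to 5.45% (CONTROL 3) of the squares counted. They held 12.3% to 23.6% of the transcript-rich cells in runs 1 and 2, 31.1% in CONTROL 3, 39.1% in MELANOMA ICI 1 and 59.96% in CONTROL ICI 3. Of all kept cells they held 2.43% to 4.80% in runs 1 and 2. In CONTROL 3, MELANOMA ICI 1 and CONTROL ICI 3 this was 6.02%, 6.84% and 9.77%. The rule of 20% puts the share of transcript-rich cells above that of all cells in advance. The patch with the most touching squares was measured between the centres of its farthest squares, which leaves out the squares' own width. This span was 1703 µm in MELANOMA ICI 1, where the patch held 280 transcript-rich cells. In CONTROL ICI 3 it was 1612 µm, and the patch held 254, or 56.8% of all in that section. In the other 9 sections the span was 141 µm (MELANOMA ICI 2) to 781 µm (CONTROL 2).

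Transcript-rich cells inside these squares can be set beside those elsewhere in the same section. PolyT per volume was higher inside in 11 of 11 sections, by 1.02 to 1.12 times. Volume was 1.004 to 1.12 times that elsewhere in run 1, 0.964 to 1.01 times in run 2 and 0.764 to 0.909 times in run 3. DAPI per volume was higher inside in 5 sections and lower in 6. The other cells of these squares were smaller than the other cells elsewhere in 11 of 11 sections. These squares were chosen by transcript counts, so the comparisons are given without a test.

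Densely packed places differed in how many transcript-rich cells they held. Of the cells with at least 12 others within 25 µm, 2.79% to 10.5% were transcript-rich. This was more than among less packed cells in 8 sections and fewer in CONTROL 1, CONTROL 3 and MELANOMA ICI 3. Some counts were small, with 5 of 97 packed cells in CONTROL ICI 1, 6 of 84 in CONTROL ICI 2 and 6 of 120 in CONTROL 1. The shares were close in CONTROL ICI 1, at 5.15% against 5.04%, and in CONTROL 1, at 5.00% against 5.10%. Squares of 50 µm with at least 15 cells were counted after the maps had been seen. Of 161 such squares in CONTROL 3, 92 held no transcript-rich cell, while in 12 at least 20% of the cells were transcript-rich. In CONTROL ICI 3 these numbers were 47 and 23 of 94 squares, and in MELANOMA ICI 1 they were 69 and 34 of 153. The most transcript-rich square reached 56.3%, 76.5% and 66.7% in these 3 sections. Median cell volume in the squares without a transcript-rich cell was 930, 948 and 914 µm3. Sections of runs 1 and 2 had 7 to 65 such squares, of which 4 to 38 held no transcript-rich cell. Of all cells in such squares, 5.42% were transcript-rich in CONTROL 3, 10.04% in CONTROL ICI 3 and 9.47% in MELANOMA ICI 1. In the sections of runs 1 and 2 this share was 3.57% (CONTROL ICI 1) to 12.9% (MELANOMA 1). Whether chance alone would leave this many squares without a transcript-rich cell was not tested, so these counts are descriptions only.

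The position of a cell in the imaging field went with its chance of being transcript-rich. Within 20 µm of a field's edge, 4.04% to 4.59% of cells were transcript-rich in 10 sections, against 5.24% to 5.61% further inside. CONTROL ICI 2 was the exception, with 5.29% at the edge and 4.95% inside. In runs 1 and 2, 2.61% to 6.78% of the cells within 100 µm of a gap in the cell map were transcript-rich, fewer than further away in 7 of 8 sections. The part of field edges and gaps in the spatial pattern was not tested.

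Very high counts came from runs 1 and 2. Of the transcript-rich cells, 47 held over 1000 transcripts, in 7 sections: 16 in MELANOMA 2, 13 in CONTROL 2, 8 in MELANOMA ICI 3, 5 in MELANOMA 1, 2 in CONTROL 1, 2 in MELANOMA ICI 2 and 1 in CONTROL ICI 2. The highest count was 4190, in MELANOMA 2. In run 3 the highest counts were 763, 305 and 534 in CONTROL 3, CONTROL ICI 3 and MELANOMA ICI 1. The 47 cells were large. Their median volumes per section were 8042 to 30634 µm3, against 2006 to 2387 µm3 for transcript-rich cells of the same sections. Of the 47, 27 lay in the transcript-rich squares of 100 µm, where each such cell counts towards its square's 20%. The share was 12 of 16 in MELANOMA 2 and 8 of 13 in CONTROL 2. It was 2 of 5 in MELANOMA 1, 1 of 2 in MELANOMA ICI 2 and 1 of 8 in MELANOMA ICI 3. Those of CONTROL 1 and CONTROL ICI 2 all lay there. Of all transcript-rich cells in runs 1 and 2, 12.3% to 23.6% did. Whether each of the 47 is 1 cell or several joined was not tested.

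The threshold cuts through a continuous range. Cells up to 10% above it had 0.976 to 1.114 times the volume of cells up to 10% below it. PolyT per volume was 0.993 to 1.041 times and DAPI per volume 0.929 to 1.109 times the value just below. The numbers of cells in these margins were 111 to 655 inside and 128 to 738 outside per section.

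The groups were compared over sections in 7 measures of the transcript-rich cells and 3 contrasts. The ICI effect is the mean log2 difference between sections with and without the inhibitors, averaged over both tumour states. The tumour effect is built likewise over both treatments, and the interaction subtracts the ICI effect without a tumour from that with one. Exact permutation within the strata allows p-values down to 0.005. For the interaction, treatment labels were permuted within each tumour state. An ICI effect confined to a single tumour state often cannot pass that test. None of the 21 tests reached an unadjusted p under 0.05, the lowest being 0.05 for the interaction on DAPI per volume, and none passed after adjustment over the 7 measures of its contrast.

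DAPI per volume was the measure in which a group stood apart. The 3 CONTROL ICI ratios of 1.304 to 1.345 lay above those of the other 8 sections, which were 0.998 to 1.12. Group means were 1.32 ± 0.023 (SD, n = 3) for CONTROL ICI, 1.04 ± 0.054 (n = 3) for CONTROL, 1.06 ± 0.082 (n = 2) for MELANOMA and 1.06 ± 0.031 (n = 3) for MELANOMA ICI. Differences between groups made up 89.1% of the variance and differences between runs 4.06%. On the log2 scale the ICI effect on this ratio came to 0.16, or 1.12-fold, with an exact p of 0.055 and 0.385 adjusted. The tumour effect was −0.15 (exact p = 0.07, adjusted 0.49) and the interaction −0.35 (exact p = 0.05, adjusted 0.35). Between CONTROL ICI and CONTROL the difference was 0.34, or 1.26-fold, with an exact p of 0.1, the smallest that 3 against 3 sections allow. Between MELANOMA ICI and MELANOMA it was −0.0081, and between MELANOMA ICI and CONTROL ICI −0.32 (exact p = 0.1, again the smallest possible). With the high-pass filtered stain MELANOMA ICI lay above MELANOMA by 0.10 (exact p = 0.1, the smallest possible), so the direction of that pair depends on the stain column.

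Within runs, the CONTROL ICI sections were above the CONTROL section by 0.34 in run 1 and 0.43 in run 3 on the log2 scale. MELANOMA ICI was above MELANOMA by 0.088 in run 1 and below it by 0.14 in run 2. With run as a stratum the ICI effect on DAPI per volume was 0.18 (exact p = 0.208, against a smallest possible 0.0417). The stain levels behind the ratio were 6.33, 5.86 and 6.00 in transcript-rich cells and 4.85, 4.50 and 4.46 in the other cells of the CONTROL ICI sections, in 100000 arbitrary units per µm3. In the CONTROL sections they were 5.62, 6.06 and 4.14 in transcript-rich cells and 5.45, 5.49 and 4.15 in the others.

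The separation of the CONTROL ICI sections depended on how cells were kept and summarised. The 3 sections did not overlap the other 8 with the 90th or 99th percentile, within volume deciles or with the high-pass filtered stain. They overlapped them without a filter, with the stricter filter, where CONTROL ICI 3 was at 0.878, and with means over cells, where it was at 0.999. With the high-pass filtered stain the ICI effect was 0.21 (exact p = 0.005, adjusted 0.035), and the adjusted p of this effect over its alternatives ran from 0.035 to 0.958. These sections also had the 3 lowest thresholds, at 70 to 101 transcripts, and the part of the threshold in the DAPI ratio was not tested.

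**Figure D5:**
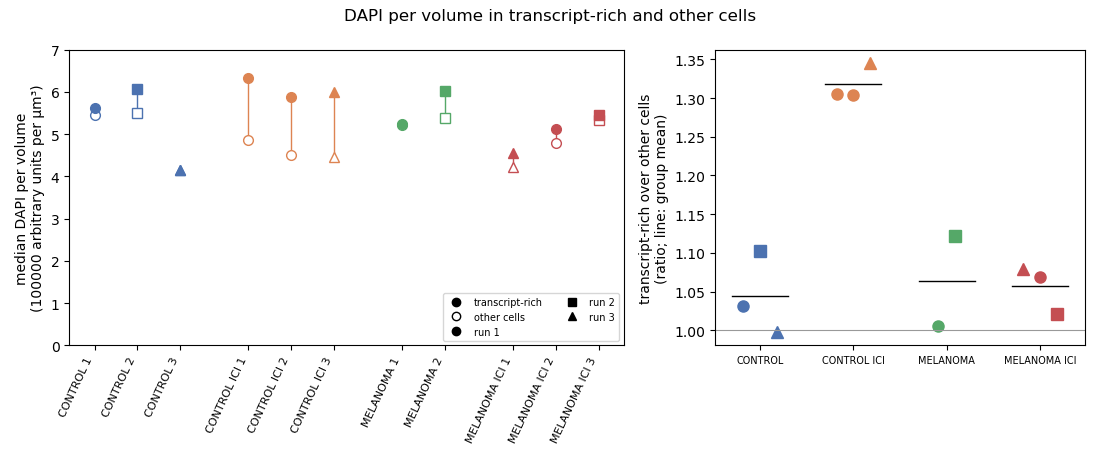
The left panel plots median DAPI per volume in 100000 arbitrary units per µm3, filled for transcript-rich and open for other cells, by section. The right panel plots their ratio by group, with a line at the group mean and the point shape for the run. The CONTROL ICI ratios lie between 1.304 and 1.345, above the other 8 sections at 0.998 to 1.12.

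The volume of transcript-rich cells overlapped between most groups. Its group means were 2279 ± 123 µm3 for MELANOMA, 2210 ± 119.8 µm3 for MELANOMA ICI, 2313 ± 278 µm3 for CONTROL and 2077 ± 170.0 µm3 for CONTROL ICI. On the log2 scale the ICI effect came to −0.098 (exact p = 0.185, adjusted 0.56), and its sign within tumour state and run was negative in 2 of 4 pairings. The tumour effect was 0.038 (exact p = 0.65). The range of the CONTROL sections, 2006 to 2546 µm3, took in both tumour groups, and the CONTROL ICI sections lay below both MELANOMA sections.

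PolyT per volume overlapped between the groups. The ratio averaged 1.27 ± 0.16 in MELANOMA, 1.20 ± 0.053 in MELANOMA ICI, 1.21 ± 0.099 in CONTROL and 1.21 ± 0.070 in CONTROL ICI, with an ICI effect of −0.035 (exact p = 0.585) and a tumour effect of 0.026 (exact p = 0.69). Differences between runs made up 71.99% of its variance and differences between groups 7.48%.

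Clustering in space differed widely within a group. Its ratio averaged 2.35 ± 0.12 in MELANOMA, 2.81 ± 0.93 in MELANOMA ICI, 2.40 ± 0.40 in CONTROL and 3.31 ± 2.62 in CONTROL ICI. The ICI effect on it was 0.20 (exact p = 0.61) and the tumour effect −0.013 (exact p = 0.98). Without run 3 the ICI effect was −0.17 (exact p = 0.222), so its direction rested on that run, and runs made up 68.2% of the variance. The number of cells within 50 µm gave an ICI effect of 0.20 (exact p = 0.24), which was 0.064 without CONTROL ICI 3 (exact p = 0.4). Anisotropy gave one of 0.0100 (exact p = 0.745).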

How the data were processed

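MERFISH tables of 11 sections were used, 1 per section with a line per segmented object. The deposited transcript counts are raw totals per object. Anisotropy is a deposited ratio of axes. The other shape values, perimeter to area and solidity, are deposited scores, and their scale is undefined. DAPI and PolyT are deposited intensity sums per object in arbitrary units, per the file headers, and were divided by volume. Volume was read as µm3 and position as µm, since the files name no unit. Software and probes are not given in the sources.

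Members and measures were chosen with earlier results of these data known. Each section gave 1 value per measure, the ratio of medians between transcript-rich and other cells, and cells were never replicates. Ratios were tested on the log2 scale by two-sided exact sign-flipping over sections, and groups by exact permutation within strata (200 arrangements), each with Benjamini-Hochberg adjustment over 7 measures. Self-tests on simulated data came first. For the interaction they required few false calls, but not that a planted effect be found. The planned lists of genes and markers do not apply to tables without genes. No single gene was named.

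Alternatives were no filter, a stricter filter (200 µm3 and 50 transcripts), the 90th and 99th percentile, means, matching on volume deciles, radii of 25 and 100 µm, 5 and 30 nearest cells, run as a stratum, replicate numbers as a block and each section left out. With run as a stratum, a section whose run held no counterpart under the other label was not used. High-pass stain values and leaving out run 3 were added after the data were seen. Total transcripts per section were 349960 to 3164943, so counting error is small. Python 3.11.15, numpy 2.4.6, pandas 2.3.3 and scipy 1.17.1 were used.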

Additional observations from a re-analysis of the deposited data

Results flagged for a closer look

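In 2 of the 7 measures tested, without matching on volume, the imaging runs went opposite ways, each section of a run moving together. Volume per bounding box, the share of boxes holding another object's centre and the perimeter-to-area score within volume deciles, described above, did the same. Anisotropy of transcript-rich over other cells had a mean log2 ratio of −0.028 in run 1 and −0.036 in run 2, below 0 in 5 of 5 and 3 of 3 sections, and of 0.049 in run 3, above 0 in 3 of 3. The solidity score had means of 1.09 in run 1 and 1.24 in run 2, above 0 in each section, and of −0.031 in run 3, below 0 in each. The difference between runs was not tested for either measure.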

How the results depend on the processing

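Values are means over sections on the log2 scale, and group contrasts are effects on the measure named. Transcript-rich cells exceeded the others in PolyT per volume and in clustering under each alternative run, with the test passed, at 0.15 to 0.36 for PolyT and 0.99 to 2.70 for clustering. The PolyT excess was 1.13-fold with the stricter filter and 1.11-fold with high-pass stain values. Their DAPI excess was −0.016 with the stricter filter, −0.017 with high-pass stain values, 0.13 with the 99th percentile and 0.074 with means, none of which passed. Their excess of neighbours was 0.069 without a filter and 0.091 with a radius of 25 µm, again not passed. Without a filter the neighbour ratio was 0.938 (CONTROL ICI 2) to 1.15 (MELANOMA ICI 1) outside CONTROL ICI 3, which had 1.95. Anisotropy was lower and passed without a filter (−0.066) and without run 3 (−0.031), a setting added after run 3 was seen to go the other way, and was 0.021, not passed, with the stricter filter. The mean log2 volume ratio was 2.45 without a filter, where the ratios of the sections were 1.32 (CONTROL ICI 3) to 10.2 (CONTROL 2). With the filter they were 1.29 (CONTROL ICI 3) to 4.10 (MELANOMA ICI 3). The share of the cells' transcripts was 43.0% without a filter, 15.2% with the stricter one, 35.8% at the 90th percentile and 7.75% at the 99th.

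Group contrasts near 0 changed sign often. With the stricter filter the ICI effect was 0.10 on member volume, 0.0021 on the volume ratio and −0.020 on anisotropy. The tumour effect there was −0.18 on member volume, −0.12 on the volume ratio, 0.012 on anisotropy, 0.15 on neighbours and 0.28 on clustering, and the interaction −0.34 on member volume and −0.28 on the volume ratio. Without a filter the interaction was −0.61 on the volume ratio and −0.23 on clustering. With the 99th percentile the ICI effect on anisotropy was −0.0042, the tumour effect −0.075 on member volume, 0.080 on neighbours and 0.18 on clustering, and the interaction −0.17 on member volume and −0.11 on the volume ratio. With means, the tumour effect on neighbours was 0.0053 and the interaction on member volume −0.020. Within volume deciles the ICI effect on PolyT was 0.00050, and on clustering the tumour effect was 0.068 and the interaction −0.44. With 30 nearest cells the latter were 0.0098 and −0.032. With run as a stratum the ICI effect on the volume ratio was 0.092, the tumour effect −0.074 on it and 0.0044 on anisotropy, and the interaction −0.028 on anisotropy and −0.47 on clustering. Without run 3 the ICI effect was 0.11 on the volume ratio, −0.013 on anisotropy and −0.17 on clustering, the tumour effect 0.00024 on anisotropy and 0.23 on clustering, and the interaction −0.076 on member volume and −0.00021 on anisotropy. The ICI effect on DAPI passed with the high-pass stain (0.21) and in no other alternative. The cause of these changes was not tested.

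With replicate numbers as a replicate block, the ICI effect on DAPI was 0.21, the tumour effect on clustering 0.042 and the interaction on the volume ratio −0.18, and no test passed. Correlations of same-numbered sections ran from −0.89 to 0.81, with a median of 0.098. Those of differently numbered sections ran from −0.81 to 0.89, with a median of −0.050. These overlapping ranges do not show whether the numbers pair the sections.

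Leaving out each section in turn, the ICI effect ranged from −0.10 to 0.031 on PolyT, −0.0063 to 0.023 on anisotropy, −0.11 to 0.39 on clustering, 0.064 to 0.29 on neighbours and −0.30 to 0.074 on the volume ratio. The tumour effect ranged from −0.040 to 0.092 on PolyT, −0.025 to 0.0069 on anisotropy, −0.20 to 0.29 on clustering, −0.012 to 0.074 on member volume, −0.20 to 0.021 on neighbours and −0.029 to 0.36 on the volume ratio. The interaction ranged from −0.20 to 0.063 on PolyT, −0.014 to 0.050 on anisotropy, −0.37 to 0.62 on clustering and −0.22 to 0.57 on the volume ratio. Few sections and their unequal spread over runs limit each group comparison.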
